A study of Larimichthys polyactis and Larimichthys crocea with 36 samples.

Results

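On FPKM as deposited, 22 gene identifiers (IDs) were high in both liver and skeletal muscle of yellow croaker and low in brain, of the 21317 that carry a chromosome number and the 24212 in the deposited table. They were chosen on measured values, and the number depends on the scale: 241 IDs met the same rule after median-ratio scaling of all libraries, 20 of them among the 22. A tissue mean is the average, over the 12 libraries of a tissue, of FPKM, a level per length of transcript and per library total. An ID was kept when its liver and muscle means were both at least 10, both at least 4 times its brain mean, and within 4-fold of each other. The tissue differences of these 22 IDs are therefore a description and were not tested. The means span all crosses, so an ID could pass through the crosses where it was high, which favours its difference between crosses.

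RNA was sequenced from 3 tissues (brain, liver, muscle) of LP, the small yellow croaker Larimichthys polyactis, of LC, the large yellow croaker Larimichthys crocea, and of their reciprocal hybrids. The hybrids are labelled LPC and LCP. Each of the 12 combinations of cross and tissue had 3 libraries. The study asked about heterosis of growth traits, which is the departure of hybrids from their parents. The labels do not give the mother of either hybrid, the age or sex of the fish, or whether replicate libraries stem from different fish. A p-value here therefore measures the spread between these libraries, part of which may be technical. No fish was given a treatment according to the labels.

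As background, liver and skeletal muscle are the main stores of glycogen in vertebrates, and both burn fatty acids, while brain runs chiefly on glucose and is separated from blood by a barrier. Liver also secretes most plasma proteins, and muscle fills most of its transcriptome with contractile genes. The files do not pair the IDs with gene names, and no sequence or annotation was used here, so none of this background can be attached to an ID and the defining markers of the 3 tissues could not be checked by name. The number after Chr in an ID is the chromosome in its name, and positions were not used. Counted this way, the 22 IDs fell on 15 of 24 chromosomes, with at most 3 on 1 chromosome. The closest numbers on a chromosome were evm.model.Chr14.75 and evm.model.Chr14.91, 16 apart, so no neighbouring pair was among them.

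The steps of the rule show where IDs were lost. Of the 21317 IDs, 1301 had liver and muscle means of at least 10, and 32 of these were at least 4 times the brain mean in both. The condition that liver and muscle lie within 4-fold removed 10 more. Exchanging the tissues in the same rule, on FPKM as deposited only, gave 237 IDs shared by brain and muscle and low in liver, and 279 shared by brain and liver and low in muscle. None of the 2895 IDs without a chromosome number met the thresholds.

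The members nearest each limit were close to IDs that missed it. On the lower of the 2 tissue means, evm.model.Chr2.346 lay inside at 12.1 and evm.model.Chr23.653 outside at 9.48. On the ratio of that lower mean to the brain mean, evm.model.Chr14.91 lay inside at 4.10 and evm.model.Chr24.668 outside at 3.89. On the balance between liver and muscle, evm.model.Chr2.346 lay inside at 3.54-fold and evm.model.Chr10.819 outside at 4.18-fold.

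Membership rested on the scale more than on any library. Leaving out each of the 36 libraries gave 21 to 27 IDs, of which 21 or 22 were members. A ratio of 3 to the brain mean gave 32 IDs and a ratio of 5 gave 18. The 241 IDs named above came from median-ratio scaling over all 36 libraries, which centres each library on the IDs above 0 in every library. The brain libraries had size factors of 2.33 to 2.88 on that scale, against 0.474 to 0.906 in liver and 0.279 to 0.801 in muscle. In liver and muscle 10 IDs of a library held 29.5% to 54.3% and 30.9% to 56.5% of the FPKM sum, against 4.55% to 9.29% in brain, and the part of this in the size factors was not tested. The 22 are thus the IDs that passed on FPKM as deposited, and not a full list of genes low in brain.

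Levels ranged widely. The median member had a mean FPKM of 50.4 in liver, 53.4 in muscle and 2.92 in brain. The lower of its liver and muscle means was 8.80 times the brain mean in the median, under 6 times in 6 members and at least 100 times in 2. In 15 members all 24 liver and muscle libraries lay above all 12 brain libraries, a separation that the rule itself favours. Over the 12 libraries of a tissue, 10 members had the higher mean in liver and 12 in muscle, and 14 were within 2-fold.

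**Figure D1:**
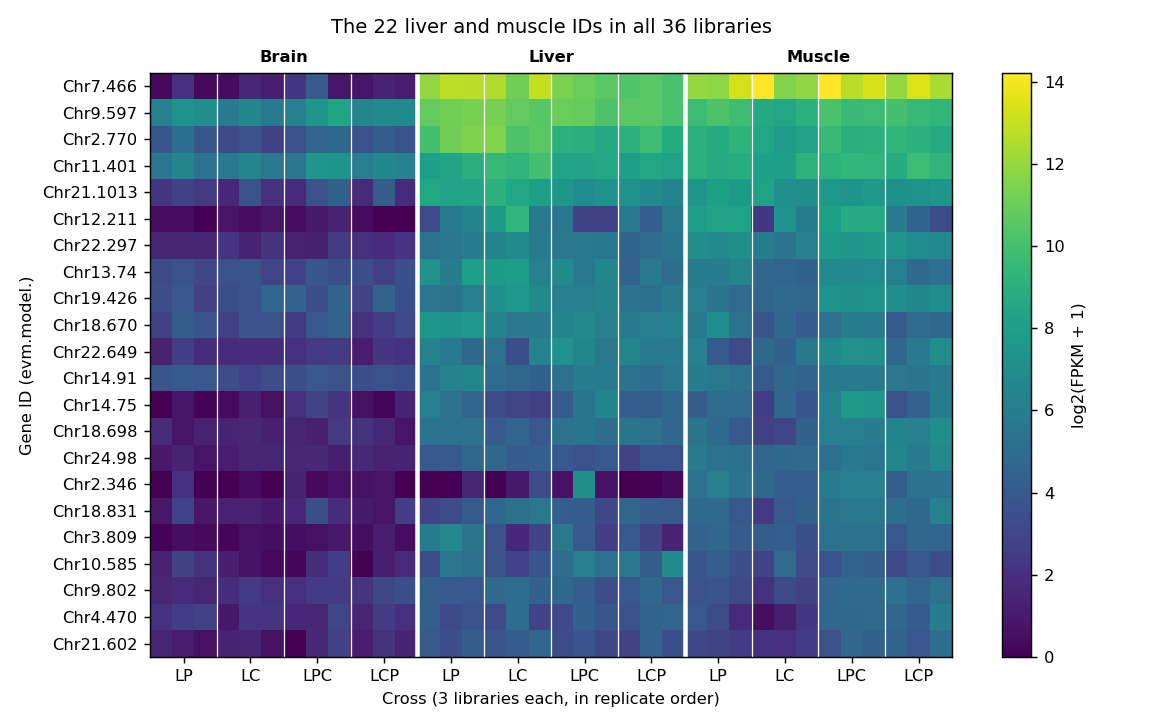
Level of each of the 22 IDs (rows, highest mean of liver and muscle at the top) in each of the 36 libraries (columns, 3 per cross and tissue), as log2(FPKM + 1) by colour. Brain columns are darker than liver and muscle columns, brightest in evm.model.Chr9.597 and evm.model.Chr11.401, and evm.model.Chr2.346 is bright in 1 liver library.

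The most abundant member was evm.model.Chr7.466. In liver it read 3802, 7240 and 6956 in LP, 5816, 2212 and 7791 in LC, 2634, 2103 and 1560 in LPC, and 1288, 1521 and 1133 in LCP. In muscle it read 3976, 3544 and 10205 in LP, 18727, 2986 and 3747 in LC, 19088, 6922 and 10452 in LPC, and 3966, 11403 and 5416 in LCP. In brain the 12 libraries lay between 0.29 and 16.1 with a median of 1.19, and the highest was LPC 2. Muscle libraries of all 4 crosses overlapped, and the highest of each cross were LP 3, LC 1, LPC 1 and LCP 2. This ID alone made 28.8% to 61.3% of the summed FPKM of the 22 members in a liver library and 51.3% to 92.1% in a muscle library. It was over 50% of that sum in 2 of 12 liver libraries and in 12 of 12 muscle libraries.

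The next members by level were evm.model.Chr9.597 and evm.model.Chr2.770. evm.model.Chr9.597 had tissue means of 1820.3 in liver, 788 in muscle and 120 in brain, the highest brain mean of the set. Its liver libraries ranged from 1143 to 2555 and its muscle libraries from 375 to 1224. Its brain libraries ranged from 57.0 to 325, and the highest was LPC 3. In LC muscle it read 414, 375 and 539, below every other muscle library. As deposited, LC muscle lay wholly below LP muscle in 11 of the 22 members and in 5840 of the 10847 IDs tested. evm.model.Chr2.770 had 1258 in liver, 492 in muscle and 15.5 in brain. Both were higher in liver over the 12 libraries, whereas evm.model.Chr7.466 was higher in muscle. At the low end of the brain values, evm.model.Chr12.211 had a brain mean of 0.490 and was listed at 0 in 3 of 12 brain libraries.

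For evm.model.Chr2.346 the label did not hold in liver outside 1 library. evm.model.Chr2.346 read 132 in LPC liver 2 and at most 8.57 in the other 11 liver libraries, where 5 were listed at 0. Without LPC liver 2 its liver mean fell from 12.1 to 1.17, against 42.7 in muscle, and it was no longer a member. Its muscle libraries ranged from 18.3 to 72.7, below the value of LPC liver 2. The share of the FPKM sum held by 142 muscle-rich IDs was 0.00990% in that library, within the 0.00480% to 0.0265% of all liver libraries, against 53.6% to 74.7% in muscle libraries. These IDs had a muscle mean of at least 100 that was at least 100 times both the brain mean and the median liver library, so their low median in liver was set by the choice. The same choice for liver gave 195 IDs, which held 0.00324% to 0.0341% of muscle libraries and 39.2% to 63.9% of liver libraries. The IDs evm.model.Chr14.91, evm.model.Chr4.470 and evm.model.Chr18.670 also left the set when 1 library was omitted (LC brain 2, LP muscle 1 or LPC muscle 3 for the first, LC liver 2 or LCP muscle 3 for the second, LP muscle 2 for the third), with means close to a limit.

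Within single crosses the pattern was less uniform. With tissue means of 1 cross, the rule was met by 15 members in LP, 8 in LC, 14 in LPC and 13 in LCP. It was met in all 4 crosses by 3 members, in 3 crosses by 6, in 2 by 7 and in 1 by 6. In LC, 13 members had liver and muscle within 4-fold, against 20 in LP, 19 in LPC and 18 in LCP. For evm.model.Chr4.470 the LC muscle mean, 1.88, was below the LC brain mean, 2.59. Libraries of 1 group varied by a median coefficient of variation of 33.7% over the members in liver and 25.9% in muscle, beside 25.3% and 25.1% over all chromosome IDs with a mean of at least 10 in that tissue.

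On FPKM as deposited, most members were higher in liver in the parents and higher in muscle in the hybrids, and scaling changed this for LC. The liver mean exceeded the muscle mean in 16 of 22 members in LP and 16 in LC, and in 3 in LPC and 5 in LCP. The median ratio of liver to muscle was 1.53 in LP and 2.10 in LC, against 0.576 in LPC and 0.544 in LCP. After median-ratio scaling of the 24 liver and muscle libraries it was 1.15 in LP, 0.738 in LC, 0.611 in LPC and 0.588 in LCP, so that LC lay on the hybrids' side of equal levels. Of the 22, 12 were higher in liver in LC and higher in muscle in both hybrids. The members that kept their side in all 4 crosses were evm.model.Chr9.597 and evm.model.Chr18.670 on the liver side, and evm.model.Chr2.346 and evm.model.Chr24.98 on the muscle side, and the other 18 changed side. The widest changes include evm.model.Chr4.470, with liver at 8.42 times muscle in LC and 0.516 and 0.544 times in LPC and LCP. The members' median level was 51.01 in liver and 48.0 in muscle of LP, 40.1 and 22.3 in LC, 48.6 and 90.2 in LPC, and 38.8 and 46.7 in LCP. The medians in liver thus spanned a narrower range over the crosses than those in muscle. The other IDs high in both tissues moved the same way. These were the 1082 other chromosome IDs with both means at least 10 and within 4-fold, whatever the brain mean. The share of them higher in liver was 53.3% in LP, 83.5% in LC, 30.3% in LPC and 26.2% in LCP. With the scaling, 14, 10, 3 and 6 of the 22 members were higher in liver in LP, LC, LPC and LCP, and the shares of the 1082 IDs were 39.2%, 37.2%, 32.2% and 27.0%. The hybrid values were close to those as deposited, and the LC value was the one that moved most.

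**Figure D2:**
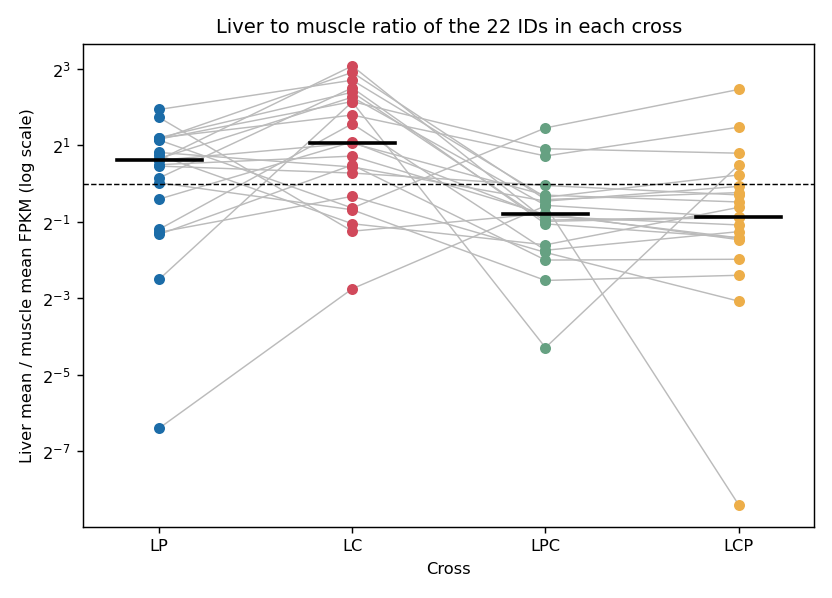
Liver mean divided by muscle mean of FPKM (log axis) for each of the 22 IDs in each cross, with grey lines joining 1 ID across crosses, black bars at the medians and a dashed line at equal levels. The medians lie above 1 in LP and LC and below 1 in LPC and LCP, and the lowest points in LP, LC and LCP are evm.model.Chr2.346.

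The parental species differed in liver for 8 of the 22 members. By limma's test on log2(FPKM + 1), adjusted by Benjamini-Hochberg over all 12553 IDs tested in liver, 3 members were higher in LC and 5 lower, beside 8.07% and 7.52% of all IDs, and 14 were not called. The median log2 difference was 0.11 over the members and 0.01 over all IDs. The 3 and 5 were the same IDs after median-ratio scaling, beside 7.13% and 6.68% of all IDs, and quantile normalization kept 2 and 5, beside 7.21% and 6.94%. In all 8 the libraries of the parents did not overlap, and in 1 further member LC lay above LP, beside 16.3% of all IDs with LC above and 15.8% with LC below. In whole tissue, fewer cells of a type and less RNA per cell cannot be told apart. Among the 1082 other IDs high in both tissues, 10.1% were higher and 4.53% lower. Whether the members' share of lower calls differs from these shares was not tested.

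Among members called lower in LC liver, the largest differences were in evm.model.Chr3.809 and evm.model.Chr14.75. In liver evm.model.Chr3.809 read 59.3, 103 and 44.2 in LP, 10.6, 2.01 and 6.53 in LC, 49.5, 14.4 and 5.01 in LPC, and 14.4, 6.56 and 1.63 in LCP. All LP libraries lay above all LC libraries, and LPC spread over the range of both parents. The LP mean was 68.7 ± 30.4 and the LC mean 6.37 ± 4.29 (n = 3, SD), a log2 difference of -3.36 (SE 0.81, limma adjusted p = 0.0186). The call was lost without LP 2 or LC 2, with adjusted p between 0.00967 and 0.0656 over 11 alternatives. In muscle the same ID read 21.3, 24.8 and 16.2 in LP and 17.3, 17.9 and 10.1 in LC, and was not called.

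In liver evm.model.Chr14.75 read 69.0, 38.7 and 24.4 in LP, 8.99, 6.79 and 5.59 in LC, 16.3, 45.0 and 83.3 in LPC, and 18.2, 18.8 and 26.8 in LCP. LC lay below every other library, and both hybrids overlapped LP. The log2 difference was -2.37 (SE 0.52, limma adjusted p = 0.0119).

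Among members called higher in LC liver, the largest differences were in evm.model.Chr18.831 and evm.model.Chr19.426. In liver evm.model.Chr18.831 read 6.60, 8.94 and 15.2 in LP, 26.7, 36.8 and 50.4 in LC, 17.97, 16.8 and 7.57 in LPC, and 24.7, 16.7 and 14.7 in LCP. The hybrid libraries lay below LC and overlapped LP. The log2 difference between the parents was 1.82 (SE 0.39, limma adjusted p = 0.0103).

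In liver evm.model.Chr19.426 read 47.0, 42.8 and 65.9 in LP, 140.3, 193 and 107 in LC, 69.9, 65.7 and 80.5 in LPC, and 39.3, 36.6 and 59.7 in LCP. LC lay above all other libraries. The log2 difference was 1.46 (SE 0.29, limma adjusted p = 0.00661), and the call held under all 11 alternatives, as it did for evm.model.Chr18.831 and evm.model.Chr14.75. Without LP liver 2 the number of members lower in LC was 3 in place of 5.

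In muscle 12 members were lower in LC than in LP and 0 higher as deposited, and none was called after scaling. Limma called 5260 of the 10847 IDs tested in muscle lower (48.5%) and 3.05% higher, with a median log2 difference of -0.64 over all IDs and -0.91 over the members. With unadjusted p under 0.05 the numbers of members were 0 higher and 13 lower, beside 3.8% and 55.7% of all IDs. After median-ratio scaling, with the median of all IDs at -0.05 and that of the members at -0.05, 0 were higher and 0 lower, and quantile normalization gave 0 and 0, beside 11.3% and 12.8% of all IDs. Thus 12 of 22 was near the share of all IDs, and no member was called once the general shift was removed. Beside the scaled counts, 10% and 11.3% of all IDs were called higher and lower. Without LP 1, LP 2 or LC 1 the count of lower members was 7, 6 and 7.

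The 2 called members with the largest differences are given on both scales. As deposited, all LC libraries lay below all LP libraries in 11 of the 22 members, beside 5840 of the 10847 IDs tested. evm.model.Chr12.211 was 1 of these 11, at 239, 308 and 308 in LP muscle and 3.86, 145 and 64.7 in LC muscle. Its log2 difference was -2.98 (SE 0.98, limma adjusted p = 0.0244), and -2.09 after median-ratio scaling (limma adjusted p = 0.166). The adjusted p ranged from 0.00673 to 0.166 over 11 alternatives, and the call was also lost with no filter on low values and without LP 2, LP 3 or LC 1. evm.model.Chr18.670 read 57.4, 134 and 41.4 in LP muscle and 12.3, 27.0 and 15.7 in LC muscle. Its log2 difference was -1.92 (SE 0.44, limma adjusted p = 0.00453), and -1.01 after scaling (limma adjusted p = 0.0708). Without LP muscle 2 the muscle mean of evm.model.Chr18.670 was 34.95, under 4 times its brain mean of 9.96, and it left the set. The high values in LP muscle thus helped it to pass, which favoured this difference and its p-value.

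**Figure D3:**
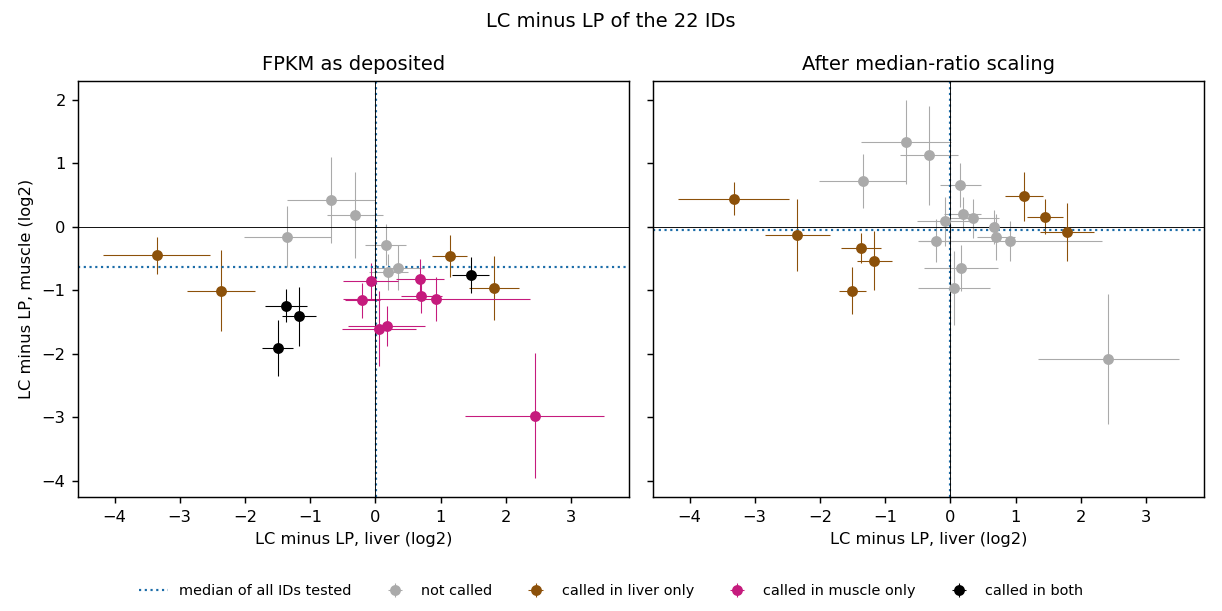
Log2 difference LC minus LP in liver (x axis) and in muscle (y axis) for the 22 IDs, with SE bars, as deposited (left) and after median-ratio scaling (right). Dotted lines mark the median of all IDs tested. Scaling moves the median in muscle from -0.91 to -0.05 over the members and from -0.64 to -0.05 over all IDs tested. The liver calls of 3 higher and 5 lower stay in place.

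The test of the difference between tissues called few members once libraries were scaled. For LC minus LP, the difference in muscle minus that in liver was higher in 1 member and lower in 8 as deposited, beside 1.26% and 34.5% of the 9148 IDs tested in both tissues. After scaling it was higher in 1 and lower in 1, beside 4.0% and 4.23%, and with quantile normalization in 1 and 3, beside 4.31% and 6.26%. Without LP muscle 2 or LC muscle 1, 5 members were lower as deposited. The member on the higher side was evm.model.Chr3.809 under each scaling, with the fall in LC liver given above and a log2 difference in muscle of -0.45 as deposited and 0.44 after scaling, neither of which was called. Among members called on the lower side, the largest values were those of evm.model.Chr12.211 and evm.model.Chr18.831. evm.model.Chr12.211 read 217, 668 and 53.2 in LC liver and 8.90, 57.2 and 84.4 in LP liver, which overlap, and the reverse order held in muscle. evm.model.Chr18.831 read 28.4, 28.3 and 13.8 in LP muscle and 4.37, 14.4 and 19.8 in LC muscle, against the higher LC values in liver given above.

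The mid-parent is the average of both parental log2 means. Against it, hybrid muscle had 15 of the 22 members higher and 0 lower as deposited. The share of all IDs was 42.8% higher and 4.42% lower, with a median log2 departure of 0.38 over all IDs and 0.71 over the members. After median-ratio scaling 8 members were higher and 0 lower, all 8 among the 15, beside 24.2% and 12.6% of all IDs, with medians of 0.29 and 0.10. Quantile normalization gave 5 higher and 2 lower, beside 16.2% and 14.9% of all IDs. Against log2 of the linear mean of the parents 11 were higher and 0 lower, beside 33.6% and 6.32%. The 5 IDs higher in all 3 were among the 8. Of the 1082 other IDs high in liver and muscle, 67.1% were higher as deposited and 40.0% after scaling, against 68.2% and 36.4% of the members, so the members' share was close to that of such IDs. In 5 members all 6 hybrid libraries lay above all 6 parental ones, as in 6.64% of all IDs. All 5 were called as deposited. Among them, muscle means in LP and LC were 8.13 and 1.88 for evm.model.Chr4.470 and 6.02 and 3.47 for evm.model.Chr21.602. For evm.model.Chr9.802 they were 10.4 and 5.67. The rule asked for a muscle mean of at least 10, so the hybrids helped these IDs to pass. For evm.model.Chr19.426, also among the 5, the LP and LC muscle means were 46.9 and 25.9. Both were under 4 times its brain mean of 13.75, so the hybrids helped it to meet the limit set against brain. This favoured the count of 5, and its excess over the share of all IDs was not tested.

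The highest departures were in evm.model.Chr4.470 and evm.model.Chr18.698. In muscle evm.model.Chr4.470 read 13.8, 8.33 and 2.30 in LP, 0.44, 1.28 and 3.92 in LC, 24.4, 26.2 and 29.2 in LPC, and 24.4, 16.8 and 64.2 in LCP. All hybrid libraries lay above all parental ones. It was 6.61-fold above the mid-parent (log2 2.73, SE 0.42, limma adjusted p = 4.57e-04), and by log2 2.41 after scaling (limma adjusted p = 0.00166). Its muscle means in LP and LC, 8.13 and 1.88, were both under the limit that the rule set for muscle. This ID thus passed through the hybrids, which favoured its departure and its p-value. The alternatives kept the same members, so they do not test this.

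In muscle evm.model.Chr18.698 read 42.9, 27.6 and 14.9 in LP, 5.37, 6.80 and 20.4 in LC, 70.6, 72.4 and 64.7 in LPC, and 84.7, 72.6 and 137 in LCP. Here too no hybrid library overlapped the parents. The departure was 4.91-fold (log2 2.30, SE 0.33, limma adjusted p = 3.15e-04), and log2 1.89 after scaling (limma adjusted p = 0.00181). Both calls held under all 18 alternatives. In liver neither was called against the mid-parent as deposited, and after scaling evm.model.Chr18.698 was called higher (log2 0.95, limma adjusted p = 0.0163).

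In hybrid liver, 1 member was higher and 7 lower than the mid-parent as deposited, beside 2.64% and 29.9% of the 12553 IDs tested. The median log2 departure was -0.51 over the members and -0.35 over all IDs. After scaling the members' median was -0.05 and that of all IDs -0.02 (2 and 3 members, beside 4.72% and 2.87%), and quantile normalization gave 2 and 3, beside 4.19% and 3.19%. The 3 lower members were among the 7. The number lower was 4 without LC 1, LPC 2 or LCP 1. Against log2 of the linear parental mean 0 were higher and 11 lower, beside 1.85% and 39.3%. The higher member, chosen for mention after its values were seen, was evm.model.Chr10.585, at 9.25, 46.6 and 37.1 in LP, 10.4, 6.32 and 12.5 in LC, 33.1, 66.7 and 39.0 in LPC, and 48.4, 17.0 and 104 in LCP (log2 1.45, SE 0.47, limma adjusted p = 0.0381). Its hybrid and LP libraries overlapped, and the call was lost without LP 1, LC 1, LPC 2, LPC 3 or LCP 1.

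In 2 of the 22 members, both among the 7 called lower, all hybrid liver libraries lay below all parental ones, beside 6.34% of all IDs. In liver evm.model.Chr2.770 read 1036, 2241 and 2794 in LP, 2952, 1210.4 and 1556 in LC, 557, 477 and 381 in LPC, and 546, 899 and 449 in LCP. It lay 3.42-fold below the mid-parent (log2 -1.77, SE 0.30, limma adjusted p = 0.00353), and by log2 -1.29 after scaling (limma adjusted p = 0.0273). As deposited the fall was of like size in both hybrids, and the parents did not separate. LPC minus LCP was log2 -0.37 as deposited and -0.85 after scaling, and neither was called (limma adjusted p = 0.593 and 0.692). The liver mean of evm.model.Chr2.770 was 3.824 times its muscle mean in LP and 6.497 times in LC. In LPC and LCP it was 0.7793 and 1.168 times. The rule asked for liver and muscle within 4-fold over all crosses, so the low hybrid liver values helped this ID to pass. This favoured its fall, its p-value and its place among the 2.

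In liver evm.model.Chr21.1013 read 357, 313 and 325 in LP, 563, 360.0 and 249 in LC, 181, 119 and 150.3 in LPC, and 153, 109 and 85.0 in LCP. It lay 2.70-fold below the mid-parent (log2 -1.44, SE 0.23, limma adjusted p = 0.00281), and by log2 -0.96 after scaling (limma adjusted p = 0.0268). Both this call and that of evm.model.Chr2.770 held under all 18 alternatives. The alternatives kept the same members, so they do not test how the rule favoured evm.model.Chr2.770. The most abundant member, evm.model.Chr7.466, was the third that stayed lower on all 3 scales, at log2 -1.66 as deposited (SE 0.30, limma adjusted p = 0.00435) and -1.18 after scaling (limma adjusted p = 0.0468). Its liver values, given above, were lower in 5 of 6 hybrid libraries than in any parental library, and LPC 1 lay above LC 2.

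As deposited, 5 of the 22 members were lower in hybrid liver and higher in hybrid muscle, beside 12.5% of the 9148 IDs tested in both tissues. After median-ratio scaling 0 were, beside 0.23%.

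**Figure D4:**
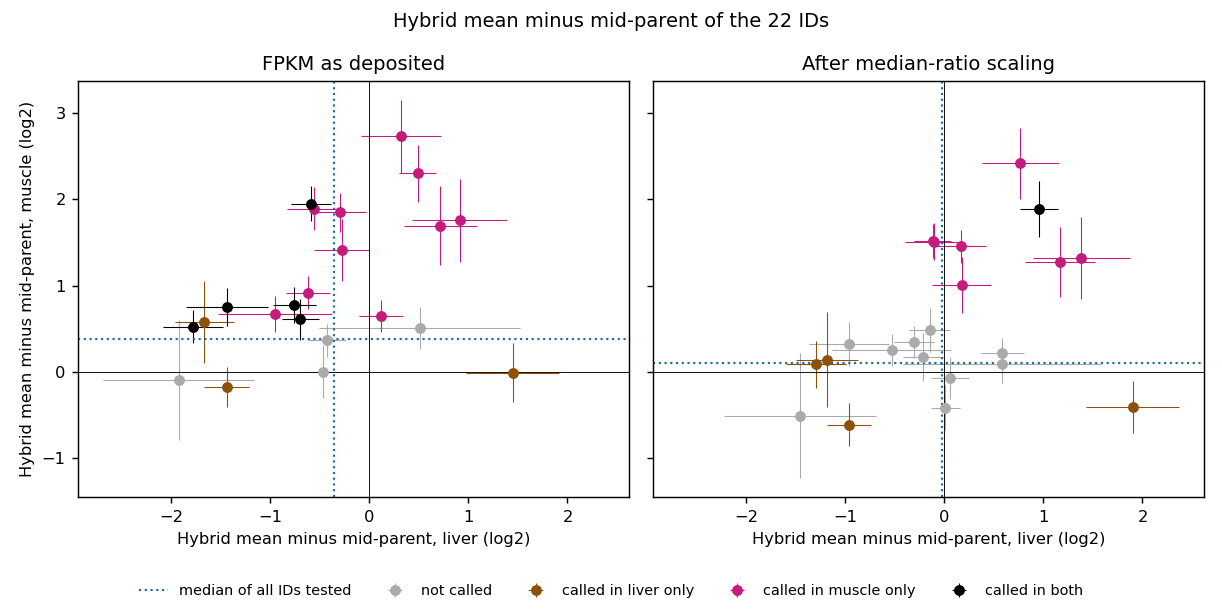
Log2 departure of the hybrid mean from the mid-parent in liver (x axis) and in muscle (y axis) for the 22 IDs, with SE bars, as deposited (left) and after median-ratio scaling (right). As deposited 5 IDs are called in both tissues, all lower in liver and higher in muscle, and after scaling 0 IDs are called in that way.

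As deposited, the test of the difference itself called most of the IDs tested, as it did most members. The hybrid departure in muscle minus that in liver was higher in 15 members and lower in 1 as deposited, beside 62.2% and 0.973% of the 9148 IDs tested. After scaling it was higher in 4 and lower in 1, beside 12.5% and 5.37%, and with quantile normalization in 4 and 1, beside 7.58% and 4.45%. Of the 1082 other IDs high in both tissues, 79.0% were higher as deposited and 18.1% after scaling, against 68.2% and 18.2% of the members. The median over the members was 1.58 as deposited and 0.64 after scaling, against 0.80 and 0.10 over all IDs and 1.23 and 0.29 over those 1082 IDs. The highest members were evm.model.Chr19.426 and evm.model.Chr21.602. In muscle evm.model.Chr19.426 read 66.8, 43.7 and 30.2 in LP, 24.3, 28.6 and 24.9 in LC, 157, 139.9 and 152 in LPC, and 127, 99.1 and 136 in LCP, all hybrids above all parents. In liver its hybrids lay below LC and beside LP, as given above. In muscle evm.model.Chr21.602 read 7.05, 6.48 and 4.52 in LP, 3.31, 2.82 and 4.29 in LC, 10.7, 24.6 and 20.6 in LPC, and 21.6, 13.6 and 34.4 in LCP. Its liver libraries overlapped across all crosses, between 6.54 and 25.0. Both IDs met the rule in muscle through the hybrids, which favoured their values in this test.

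**Figure D5:**
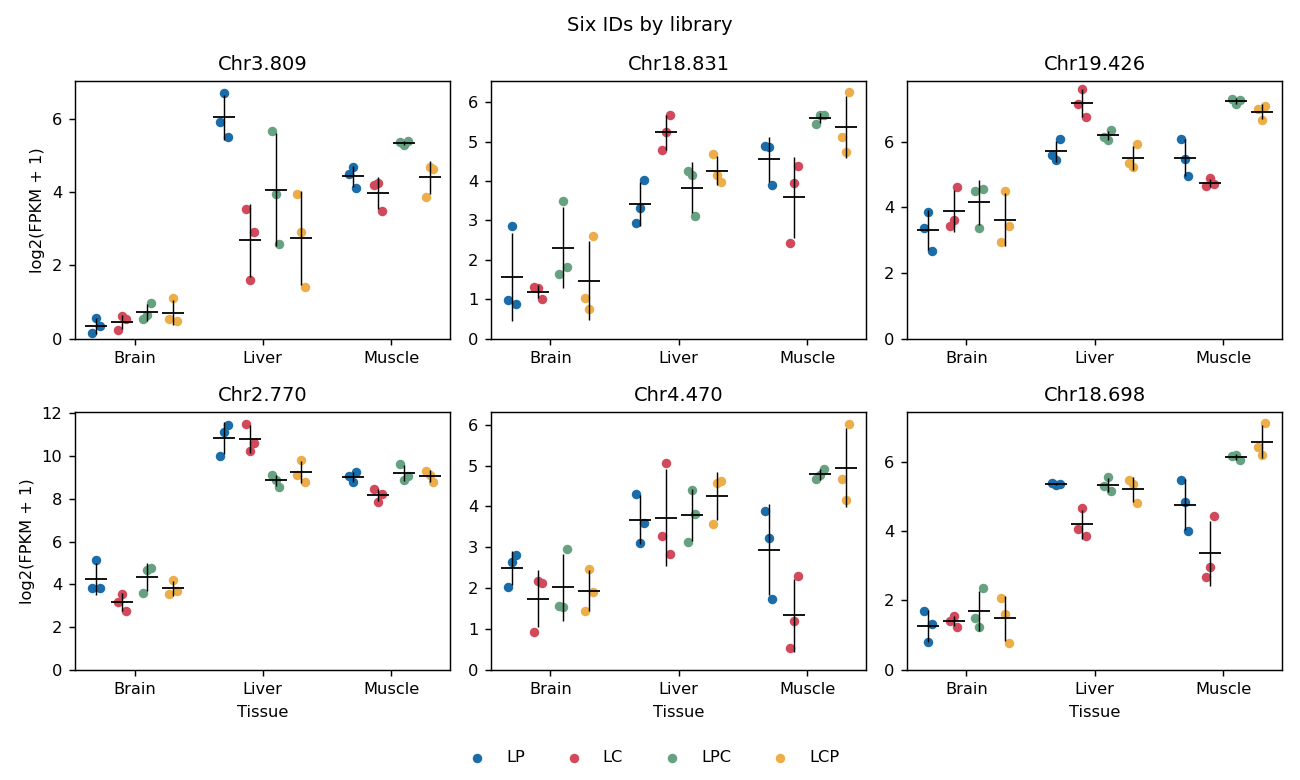
Level of 6 IDs as log2(FPKM + 1) in each library (dots, coloured by cross), with the mean and SD of each group of 3. The LP dots of evm.model.Chr3.809 stand above LC in liver, the hybrid dots of evm.model.Chr2.770 lie below both parents in liver, and the hybrid dots of evm.model.Chr19.426, evm.model.Chr4.470 and evm.model.Chr18.698 lie above both parents in muscle.

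The reciprocal hybrids differed in few members. In muscle 2 were higher in LPC than in LCP and 0 lower, beside 4.36% and 0.415% of all IDs. These were evm.model.Chr12.211, at 267, 448 and 427 in LPC and 57.9, 23.3 and 8.88 in LCP (log2 3.95, SE 0.98, limma adjusted p = 0.0434), and evm.model.Chr13.74, at 109.7, 109.8 and 114 in LPC and 70.0, 29.3 and 35.2 in LCP (log2 1.39, SE 0.31, limma adjusted p = 0.0324). Neither pair of groups overlapped. As deposited, LPC lay wholly above LCP in 8 members and below in 2, beside 3436 and 441 of the 10847 IDs tested. After median-ratio scaling it lay above in 2 members and below in 6, beside 1433 and 1769 of those IDs. The first call was lost under each of the 11 alternatives and the second under 7 of them, and after scaling 0 members were higher and 1 lower, beside 0.535% and 0.802% of all IDs. The adjusted p ranged from 0.0555 to 0.155 for the first and from 0.0118 to 0.231 for the second. The count was 0 without any 1 of the LPC libraries or LCP 2, and 1 without LCP 1. In liver 0 members were called by limma, beside 0.191% of all IDs higher and 0.0478% lower. With unadjusted p under 0.05, 1 member was higher and 0 lower in LPC liver, beside 19.3% and 0.98% of all IDs, and the lowest adjusted p was 0.222.

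In brain, 19 of the 22 members passed the filter, which asks for 1 FPKM or more in 3 or more libraries, so the brain results leave out the 3 lowest. Limma called 0 of the 19 between LC and LP, 0 against the mid-parent and 0 between the hybrids, beside 3.42%, 0.0502% and 0% of all 17931 IDs tested. With unadjusted p under 0.05 0 members were higher and 2 lower in LC, beside 7.62% and 11% of all IDs. In hybrids 2 were higher and 0 lower, beside 3.42% and 2.82%, and in LPC against LCP 1 was higher and 0 lower, beside 2.24% and 1.34%. The lowest adjusted p was 0.0890 for LC minus LP. No scaling and no omitted library gave a call, and after median-ratio scaling the shares of all IDs were 3.44%, 0.0613% and 0%. The 5 members with a brain mean of at least 10 were among the 19.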

How the data were processed

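RNA was sequenced from brain, liver and muscle of 4 crosses, 36 libraries in all. Per the labels' protocols, total RNA from TRIzol extraction was selected for poly(A) tails and reverse transcribed from random primers. No strand-marking step is described. The authors deposited FPKM, 1 column per library. Reads were handled with fastp, per the submitters' processing notes. Neither aligner nor quantifier nor genome build nor annotation is named: each is not given in the sources used here. The libraries' FPKM summed to between 492062 and 1029194. Such sums do not measure depth, which is unknown, so no count test or counting interval was used.

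Groups came from the sample titles and columns were mapped by name. Values were taken to log2(FPKM + 1) and each tissue fitted by limma (version 3.58.1, under R 4.3.3), 4 crosses as groups, with a mean-variance trend and 2-sided tests, over IDs that reached 1 FPKM in 3 or more of 12 libraries. P-values were adjusted by Benjamini-Hochberg over all IDs tested per contrast and called under 0.05. All 22 members passed in liver and muscle. The difference between liver and muscle was fitted on their 24 libraries. Differences on this scale understate changes of low values. The test of LC minus LP within each tissue was also run on simulated data.

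Alternatives were a pseudocount of 0.1, no filter, median-ratio scaling, quantile normalization, the replicate number as a block, the linear mid-parent (log2 of the mean parental FPKM plus 1, with a delta-method error) and each library left out. Named IDs were the 2 highest and 2 lowest differences per tissue and contrast among called members whose libraries did not overlap between sides (for the difference between tissues, which has no such sides, among all called), and the 3 most abundant. Members, lists and the rule were chosen with earlier results of these data known. The comparison with other IDs high in both tissues and the lists of muscle-rich and liver-rich IDs were added after the values were seen.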

Additional observations from a re-analysis of the deposited data

Results flagged for a closer look

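For 6 results the same contrast differed between liver and muscle in the test of the difference (limma on the 24 libraries, Benjamini-Hochberg adjusted), always given as muscle minus liver. For LC minus LP the log2 value was 2.90 in evm.model.Chr3.809 (SE 0.89, limma adjusted p = 0.0168, called under all 17 alternatives). It was -5.42 in evm.model.Chr12.211 (SE 1.53, limma adjusted p = 0.0108) and -2.78 in evm.model.Chr18.831 (SE 0.66, limma adjusted p = 0.00396). After median-ratio scaling these became -4.42 (limma adjusted p = 0.0853) and -1.78 (limma adjusted p = 0.0871). For the hybrid departure from the mid-parent it was 2.54 in evm.model.Chr19.426 (SE 0.28, limma adjusted p = 2.04e-06) and 2.44 in evm.model.Chr21.602 (SE 0.39, limma adjusted p = 4.23e-05), both called under all 30 alternatives. Over these alternatives the first ranged from log2 1.26 to 2.68 (limma adjusted p at most 0.00224). The second ranged from 1.28 to 2.69 (limma adjusted p at most 0.0279). For evm.model.Chr10.585 the hybrid value was -1.45 (SE 0.60, limma adjusted p = 0.0415), with adjusted p from 0.00884 to 0.0940 over 30 alternatives. The call was lost in 13 of these, 11 of them by leaving out 1 library. For evm.model.Chr19.426 and evm.model.Chr21.602, the rule was met in muscle through the hybrids, which favoured their values. The alternatives kept the same members, so they do not test this. The values of each library stand in the report.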

How the results depend on the processing

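Counts of members higher and lower are given in that order. Median-ratio scaling moved hybrid liver from 1 and 7 to 2 and 3, LC minus LP in muscle from 0 and 12 to 0 and 0, hybrid muscle from 15 to 8 higher, LPC minus LCP in muscle from 2 and 0 to 0 and 1, the difference between tissues of LC minus LP from 8 to 1 lower and that of the hybrid departure from 15 to 4 higher. Quantile normalization gave 2 and 3, 0 lower, 5 and 2, 0 higher, 3 lower and 4 higher in the same order. With no filter, hybrid liver had 0 higher, LPC minus LCP in muscle 0 higher and the hybrid difference between tissues 0 lower. A pseudocount of 0.1 left 1 higher in LPC minus LCP in muscle. The linear mid-parent gave 0 and 11 in hybrid liver and 0 lower in the hybrid difference between tissues. The number of members was 241 after scaling and 3 when each cross had to meet the rule. Apart from scalings, which remove shifts common to a library, the cause was not tested.

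Leaving out 1 library gave, for LC minus LP, 2 to 3 higher and 3 to 5 lower in liver, 6 to 10 lower in muscle, and 5 to 9 lower for the difference between tissues. It gave 0 to 2 higher and 4 to 9 lower in hybrid liver, 13 to 15 higher in hybrid muscle, 0 to 2 higher for LPC minus LCP in muscle, and 14 to 16 higher and 0 to 1 lower for the hybrid difference between tissues. The lower member of the last, evm.model.Chr10.585, was lost without LP liver 1, LC liver 2, LPC liver 2, LCP liver 1 or 3, LP muscle 1 or 2, LC muscle 2, LPC muscle 1, or LCP muscle 1 or 3. For the 18 named differences, 257 of 301 alternatives kept direction and call, 44 kept direction and lost the call, and 0 reversed.

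The replicate block (the number within a tissue, and cross with number over liver and muscle together) moved no count by over 1.5 times; the largest move was LC minus LP in muscle, from 12 to 9 lower. With liver and muscle of a cross and number as 1 block, the differences between tissues stayed at 1 higher and 8 lower for LC minus LP and 15 higher and 1 lower for the hybrid departure. Not every pair correlated over 0.1, so the numbers were not taken to pair libraries. Same-numbered libraries of different crosses had median correlations of deviations of 0.223 in brain, 0.016 in liver and -0.013 in muscle, and liver with muscle of 1 cross ranged from 0.017 to 0.322, over 0.1 in 11 of 12 pairs, against at most 0.075 between different numbers, a hint from the data and not from the design. Depth is unknown, so its part in any value was not tested.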

Other observations

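The 22 members together held 0.0335% to 0.102% of the FPKM sum of a brain library. The highest were LPC 3, at 0.102%, LPC 2, at 0.0815%, and LP 2, at 0.0632%. The other 9 brain libraries lay between 0.0335% and 0.0502%. In LPC 3, evm.model.Chr9.597 read 325 and evm.model.Chr11.401 read 163, and in LPC 2 they read 169 and 167, against at most 157 and 100.4 in the brain libraries of the other crosses. The remaining LPC library, LPC 1, read 75.4 and 47.6, within the range of the other crosses.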
